A study of Mus musculus with 6 samples.

Results

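The Hedgehog genes described here are 9 rows of the deposited gene table, selected by gene symbol out of 49492 gene rows. They are the co-receptors Cdon, Gas1 and Boc, the ligand Shh, the receptor Ptch1, the inhibitor Hhip and the transcription factors Gli1, Gli2 and Gli3. All 9 were found, and all 9 passed the filter on low values, which kept 16218 genes with a mean of at least 1 CPM (counts scaled to the depth of the library) over the 6 libraries. RNA was sequenced from soft palates of mouse embryos at stage E14.5, with 3 libraries of genotype Dlx5-/- and 3 control libraries of genotype wild type. Dlx5 encodes a homeodomain protein that patterns the jaw-forming arches, and the labels name neither the allele nor the strain. Nothing in the labels ties each library to an embryo of its own, so each p-value reflects how far these samples scatter, and that scatter may be technical.

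Hedgehog signalling is a short-range pathway in which a secreted lipid-modified ligand binds Ptch1, which otherwise holds the membrane protein Smo inactive. Cdon, Boc and Gas1 are cell-surface proteins that bind the ligand and help to present it to Ptch1. Active Smo changes the balance of the Gli transcription factors, of which Gli2 is mainly an activator and Gli3 mainly a repressor. Gli1, Ptch1 and Hhip are themselves switched on by the pathway, so their RNA is widely used as a readout, while in several mouse embryonic tissues Cdon, Boc and Gas1 are lowered by Hedgehog signalling. In the developing palate Shh is made by the oral epithelium and received by the mesenchyme below it. Cdon and Boc also promote differentiation of skeletal myoblasts.

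The libraries held between 6891798 and 11922442 estimated counts. Dlx5, the targeted gene, measured 0.829, 1.63 and 1.28 CPM in Dlx5-/- libraries, against 26.1, 15.7 and 16.2 CPM in control libraries, which fits all 6 labels. Dlx5-/- replicate 3 stood apart, with a mean correlation with the other libraries of 0.959, against 0.970 to 0.976 for the rest. Its summed level of 8 brain markers was 196 CPM, with estimates above 0 for all 7 that passed the filter, against 13.0 and 4.13 CPM in the other Dlx5-/- libraries and 4.38 to 15.4 CPM in control libraries. Summed markers of palatal mesenchyme (8 genes, all detected) ran from 1917 to 3985 CPM in Dlx5-/- libraries and from 3252 to 3799 CPM in control libraries. Most of that sum was Col1a1, at 1778, 3222 and 1072 CPM in Dlx5-/- libraries and 2807, 2635 and 3064 CPM in control libraries. Each of the 8 markers was detected in both groups, which does not show that the labelled tissue was sampled alike. In such bulk samples, fewer cells of a type and less RNA per cell cannot be told apart.

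The promoter windows of 3 members are shown because their genes lie on different sides of the comparison: Gas1 had the highest level of the co-receptors, Hhip had the lowest estimate, and Gli2 alone held a searched motif. RefSeq windows (GRCm38.p6, 250 bases before to 50 bases after each gene's start, 300 bases in all) were available for 6 of the 9 members. The stretches before the start are printed 5′ to 3′, with a match in capitals.
Gas1 (chr13:60177536-60177785, minus strand): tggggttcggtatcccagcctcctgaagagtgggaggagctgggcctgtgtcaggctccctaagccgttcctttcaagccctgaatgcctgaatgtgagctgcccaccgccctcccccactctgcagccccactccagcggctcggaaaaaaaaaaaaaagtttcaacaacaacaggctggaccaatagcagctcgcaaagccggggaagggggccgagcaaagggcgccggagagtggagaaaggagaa
Hhip (chr8:80058009-80058258, minus strand): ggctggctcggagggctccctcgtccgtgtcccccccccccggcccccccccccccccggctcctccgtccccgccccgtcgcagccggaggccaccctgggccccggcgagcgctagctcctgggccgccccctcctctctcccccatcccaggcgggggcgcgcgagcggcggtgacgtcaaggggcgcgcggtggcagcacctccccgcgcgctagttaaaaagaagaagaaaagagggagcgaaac
Gli2 (chr1:119053620-119053869, minus strand): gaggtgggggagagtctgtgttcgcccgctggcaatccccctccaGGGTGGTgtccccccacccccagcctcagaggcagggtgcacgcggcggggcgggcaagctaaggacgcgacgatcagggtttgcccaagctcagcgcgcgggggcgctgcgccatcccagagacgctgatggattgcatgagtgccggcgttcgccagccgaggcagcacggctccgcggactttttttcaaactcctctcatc
The motifs searched on both strands were the Gli motif GACCACCCA, its core ACCACCC, which the longer motif contains, and the homeodomain motif TAATTA. Over all 32851 windows they were present in 0.253%, 4.61% and 5.29%. The Gli2 window held 1 match to ACCACCC, read on the reverse strand as GGGTGGT. The windows of Cdon, Gas1, Ptch1, Hhip and Gli3 held none of these exact letters. The RefSeq start used for Cdon lies 30948 bases inside the gene as GENCODE draws it, and that for Ptch1 7863 bases inside, so these windows need not be the promoters in use in the palate.

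Cdon and Gas1 had the highest estimates of the 9 members, the targets the lowest, and the ligand could not be resolved. Boc came next on the log2 scale (0.38), but not beyond the error from Gli3 (0.32). Their order reversed without control replicate 2 (Boc 0.22, Gli3 0.33) and without Dlx5-/- replicate 2 (Boc 0.30, Gli3 0.35). Cdon was 1.84-fold and Gas1 1.69-fold the control level in Dlx5-/- soft palates, Boc 1.30-fold, Ptch1 0.816-fold and Hhip 0.738-fold. None of the 9 passed edgeR's quasi-likelihood test after Benjamini-Hochberg adjustment over all 16218 genes at 0.05, a threshold that 0.00617% of all genes passed. By the same test 6 members had an unadjusted p under 0.05, of which 4 were higher and 2 lower, against 5.6% of all genes higher and 7.23% lower. DESeq2 called 2 members, Cdon and Gas1, and limma-trend on log2(CPM + 1) called 1, Cdon, all higher. Of all genes with an adjusted p, DESeq2 called 0.807% higher and 3.43% in either direction, and limma-trend 0.0555% higher and 0.598% in either direction. Groups did not overlap for 5 members, with Cdon, Gas1, Boc and Gli3 higher in every Dlx5-/- library and Hhip lower in every one. Among all genes tested, 9.48% were higher in every Dlx5-/- library and 9.71% lower. The members were chosen with earlier results of these data known. Their counts beside the shares over all genes are thus a description and no test of the set.

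**Figure D1:**
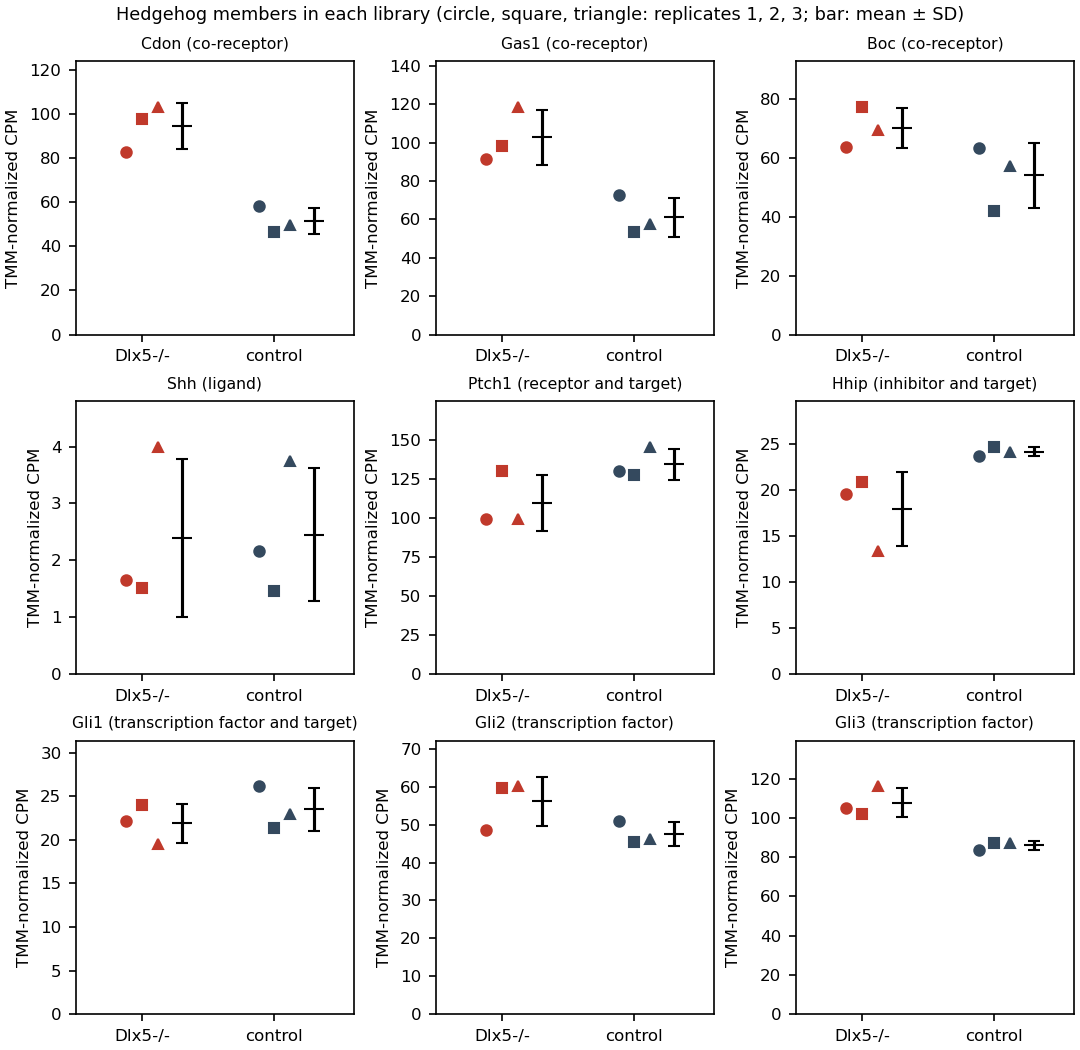
Level of each of the 9 members in TMM-normalized CPM (vertical axes, each from 0) in 3 Dlx5-/- and 3 control libraries, with circles, squares and triangles for replicates 1, 2 and 3 and the mean ± SD beside them. Every Dlx5-/- library lies above every control library for Cdon, Gas1, Boc and Gli3, and below for Hhip.

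Cdon, a transmembrane protein of the immunoglobulin superfamily, lies on chromosome 9 from 35421128 to 35507652, plus strand (GRCm38). It measured 82.8, 97.7 and 103 CPM in Dlx5-/- libraries, against 58.1, 46.6 and 49.4 CPM in control libraries. The lowest Dlx5-/- value stood well above the highest control value. Its mean was 94.6 ± 10.6 CPM in Dlx5-/- libraries and 51.4 ± 5.98 CPM in control libraries (SD, n = 3 each). On the log2 scale Cdon differed by 0.88 (SE 0.12, 95% confidence interval 0.61 to 1.15; adjusted p = 0.0527, edgeR quasi-likelihood), and its p-value was number 14 in order among the 16218 genes. The estimate ran from 0.81 to 0.98 with 1 library left out. Without Dlx5-/- replicate 3, Cdon passed (log2 fold change 0.81; adjusted p = 0.0307, edgeR). Over all 15 alternatives its adjusted p ran from 2.77e-07 with DESeq2 to 0.231 with edgeR without control replicate 2.

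Gas1, a lipid-anchored co-receptor first known as a growth arrest gene, lies on chromosome 13 from 60174405 to 60177365, minus strand. It measured 91.2, 98.2 and 119 CPM in Dlx5-/- libraries, against 72.4, 53.2 and 57.4 CPM in control libraries. Again all Dlx5-/- libraries were above all control libraries, with Dlx5-/- replicate 3 the highest. Gas1 missed the threshold at a log2 fold change of 0.75 (SE 0.14; adjusted p = 0.0724, edgeR), with a 95% confidence interval from 0.43 to 1.08. Leaving out Dlx5-/- replicate 3 gave the lowest estimate, 0.63, and leaving out control replicate 1 the highest, 0.90. A long noncoding gene on the opposite strand, Gm48488, shares 589 exon bases with Gas1, and the use of strand in counting is not given in the sources used here.

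Boc, the closest relative of Cdon in sequence, lies on chromosome 16 from 44485049 to 44558897, minus strand. It measured 63.6, 77.3 and 69.6 CPM in Dlx5-/- libraries, against 63.2, 41.8 and 57.1 CPM in control libraries. The groups separated by the narrow gap between Dlx5-/- replicate 1 and control replicate 1. Boc had a log2 fold change of 0.38 (SE 0.15; adjusted p = 0.337, edgeR) with a 95% interval from 0.03 to 0.73, and its estimate was 0.22 without control replicate 2. The count of Cdon over that of Boc, which no scaling between libraries can change, was 1.3, 1.26 and 1.48 in Dlx5-/- libraries and 0.920, 1.11 and 0.866 in control libraries. Cdon thus stood higher relative to Boc in every Dlx5-/- library, a description of a pair picked from the members with no test.

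Shh, the ligand of the oral epithelium, was close to the limit of the data. It lies on chromosome 5 from 28456815 to 28467256, minus strand. It had 14, 14 and 52.8 estimated counts in Dlx5-/- libraries (1.66, 1.52 and 4.0 CPM), against 20, 18.3 and 26 in control libraries (2.16, 1.46 and 3.74 CPM). In each group replicate 3 was the highest, and the groups overlapped fully. The log2 fold change was 0.02 with a 95% confidence interval of -1.14 to 1.19 (adjusted p = 0.989, edgeR), which leaves room for a change of either sign as large as that of Cdon. Without Dlx5-/- replicate 3, the library with the most brain markers, the estimate was -0.59 (adjusted p = 0.699, edgeR). It was 0.43 with control replicate 3 left out (adjusted p = 0.871, edgeR), -0.05 with control replicate 1 left out and -0.26 with control replicate 2 left out. Summed oral epithelium markers, 10 genes of which none was at 0, measured 238, 267 and 289 CPM in Dlx5-/- libraries, against 279.6, 299.7 and 453 CPM in control libraries, with control replicate 3 again the highest. Of the estimates for these markers, 2 were above 0 and 8 below 0, and none passed edgeR at 0.05. The part of these markers in the Shh values was not tested. Shh shares 446 exon bases with the antisense gene 9530036O11Rik and 361 with Gm26894.

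Ptch1, both the ligand's receptor and a target, lies on chromosome 13 from 63508328 to 63573598, minus strand. It measured 99.4, 130.4 and 99.3 CPM in Dlx5-/- libraries, against 130.4, 127 and 146 CPM in control libraries. Dlx5-/- replicates 1 and 3 were below all controls, while replicate 2 lay among them. Its log2 fold change was -0.29 (SE 0.12, 95% confidence interval -0.57 to -0.02; adjusted p = 0.359, edgeR). Without Dlx5-/- replicate 2 it was -0.45 (adjusted p = 0.104, edgeR), and without Dlx5-/- replicate 3 it was -0.23.

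Hhip, a membrane protein that binds and sequesters the ligand, lies on chromosome 8 from 79965851 to 80058006, minus strand. It measured 19.7, 20.9 and 13.4 CPM in Dlx5-/- libraries, against 23.8, 24.8 and 24.1 CPM in control libraries. The control libraries lay close together (24.2 ± 0.507 CPM), and every Dlx5-/- library was below them (18.0 ± 3.99 CPM; SD, n = 3 each). Hhip missed the threshold at a log2 fold change of -0.44 (SE 0.17; adjusted p = 0.320, edgeR), with a 95% confidence interval from -0.82 to -0.05. Dlx5-/- replicate 3 was the lowest, and without it the estimate was -0.26 (adjusted p = 0.410, edgeR).

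Gli1, the member whose transcription is thought to depend most directly on active signalling, lies on chromosome 10 from 127329882 to 127341974, minus strand. It measured 22.1, 24.0 and 19.5 CPM in Dlx5-/- libraries, against 26.1, 21.3 and 23.0 CPM in control libraries. The groups overlapped. For Gli1 the log2 fold change was -0.10 (SE 0.13, 95% confidence interval -0.39 to 0.19; adjusted p = 0.800, edgeR), so the interval excludes a change the size of that of Cdon in either direction. Gli1 stayed between -0.19 and -0.02 with 1 library left out.

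Gli3, the main repressor, lies on chromosome 13 from 15463235 to 15730026, plus strand. It measured 105, 102 and 116 CPM in Dlx5-/- libraries, against 83.6, 87.2 and 87.4 CPM in control libraries. All Dlx5-/- libraries were above all controls, and the spread within each group was small (SD 7.43 and 2.15 CPM, n = 3 each). Gli3 missed the threshold at a log2 fold change of 0.32 (SE 0.08; adjusted p = 0.133, edgeR), with a 95% confidence interval from 0.14 to 0.51, and was at 0.26 without Dlx5-/- replicate 3. With library totals in place of TMM factors, every Dlx5-/- library was below every control for Ptch1, the Gli3 groups overlapped and the unadjusted p of edgeR was 0.0732, against 0.00334 with TMM.

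Gli2, the main activator, lies on chromosome 1 from 118834132 to 119053619, minus strand. It measured 48.6, 59.7 and 60.1 CPM in Dlx5-/- libraries, against 51.1, 45.3 and 46.3 CPM in control libraries. Dlx5-/- replicate 1 lay within the control range and the others above it. Gli2 had a log2 fold change of 0.24 (SE 0.11; adjusted p = 0.395, edgeR) with a 95% interval from -0.00204 to 0.48.

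**Figure D2:**
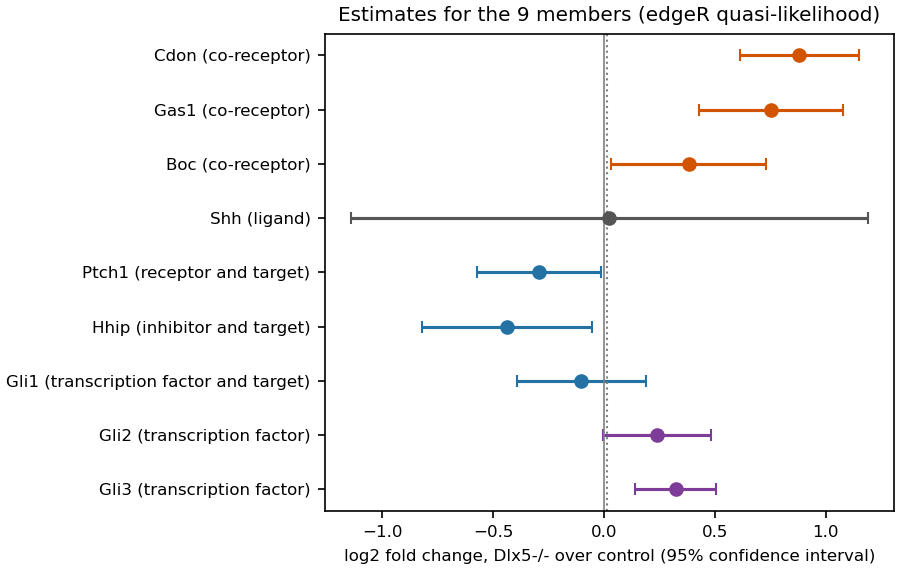
Log2 fold change of each member, Dlx5-/- over control (horizontal axis), with its 95% confidence interval from edgeR; the dotted line is the median of all genes tested (0.01). Orange marks co-receptors, blue targets, purple Gli2 and Gli3, and grey Shh, whose interval runs from -1.14 to 1.19.

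Within each library the co-receptors were set against the targets. The mean log2(CPM + 1) of Cdon, Gas1 and Boc minus that of Ptch1, Gli1 and Hhip was 1.13, 1.14 and 1.63 in Dlx5-/- libraries, against 0.55, 0.19 and 0.32 in control libraries. The groups were apart, with Dlx5-/- replicate 3 the highest. The difference between group means was 0.94, and it was 0.78 without Dlx5-/- replicate 3. It rests on members chosen with these results known and has no test. Set against Shh in the same way, the co-receptors gave 4.90, 5.18 and 4.26 in Dlx5-/- libraries and 4.37, 4.29 and 3.55 in control libraries, which overlapped.

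Ratios of estimated counts within a library show the same without any scaling between libraries. Cdon over Ptch1 was 0.833, 0.749 and 1.04 in Dlx5-/- libraries, against 0.445, 0.366 and 0.339 in control libraries. Gas1 over Ptch1 was 0.918, 0.753 and 1.19 in Dlx5-/- libraries, against 0.555, 0.417 and 0.393 in control libraries. In Dlx5-/- libraries these ratios thus ran from 0.749 to 1.19, against 0.339 to 0.555 in control libraries. The exons of Cdon, Gas1 and Ptch1 span 7715, 2961 and 14185 bases, so near-equal counts would not mean near-equal levels. Cdon over Gli1 averaged 4.36 ± 0.813 in Dlx5-/- libraries and 2.19 ± 0.0366 in control libraries (SD, n = 3 each). Each ratio of a co-receptor to Ptch1, Gli1 or Hhip was higher in every Dlx5-/- library than in every control library, while those to Shh overlapped. The same held for each ratio of Gli2 or Gli3 to these genes, so it was not particular to the co-receptors. These ratios share genes, and the share over other gene pairs was not computed. Among the Gli genes, the count of the repressor Gli3 over that of Gli1 was 4.75, 4.24 and 5.94 in Dlx5-/- libraries, against 3.2, 4.08 and 3.8 in control libraries.

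**Figure D3:**
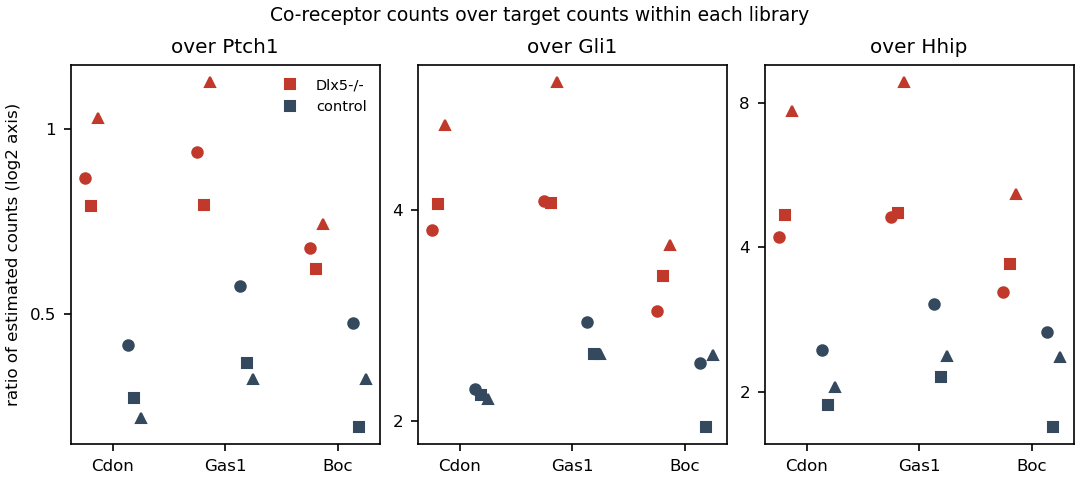
Ratio of the estimated counts of Cdon, Gas1 and Boc (horizontal axis) to those of Ptch1, Gli1 and Hhip (panels, log2 vertical axes) in each library, with circles, squares and triangles for replicates 1, 2 and 3. Dlx5-/- libraries (red) lie above control libraries (dark blue) for each gene in all 3 panels, as for Cdon over Ptch1 with 0.749 to 1.04 against 0.339 to 0.445.

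Per kilobase of exon (GENCODE M21, the union of annotated exons), the order of the members also differed. Gas1 had the highest level of the 9 in both groups, at 34.7 ± 4.80 CPM per kilobase in Dlx5-/- libraries and 20.6 ± 3.42 in control libraries (SD, n = 3 each). Boc came next, with 15.8 ± 1.54 in Dlx5-/- libraries and 12.1 ± 2.47 in control libraries. Cdon was the third in Dlx5-/- libraries at 12.3 ± 1.37 CPM per kilobase, not beyond the spread from Gli3 (11.2 ± 0.773). In control libraries Cdon, at 6.66 ± 0.775, stood after Ptch1 (9.49 ± 0.695), Gli3 (8.97 ± 0.225) and Gli2 (6.92 ± 0.449), of which Gli2 was within its spread; Ptch1 lay above Gli3 by less than the SD of Ptch1 but more than that of Gli3. Gli1, Hhip and Shh were the lowest in both groups, with Shh at 0.841 ± 0.489 in Dlx5-/- libraries and 0.862 ± 0.410 in control libraries. Gene models longer than the transcripts used in the palate would lower these levels.

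Cell type markers were also compared between the groups. Skeletal muscle markers were 8 genes, all with estimates above 0 and none called by edgeR. They summed to 506, 1546 and 921 CPM in Dlx5-/- libraries and 546, 779.7 and 458 CPM in control libraries, which overlapped. Myod1, the myoblast regulator, measured 15.75, 21.1 and 26.3 CPM in Dlx5-/- libraries, against 12.8, 14.1 and 9.63 CPM in control libraries, without overlap. Groups overlapped for every other muscle marker on the list. Myog, for example, measured 19.4, 44.6 and 45.4 CPM in Dlx5-/- libraries, against 16.5, 20.8 and 11.2 CPM in control libraries. Of the muscle markers, only Myod1 was used for ratios. Cdon over Myod1 was 5.26, 4.63 and 3.92 in Dlx5-/- libraries and 4.52, 3.3 and 5.13 in control libraries, and Gas1 over Myod1 overlapped likewise. Measured against Pdgfra, a mesenchymal receptor, Cdon was at 0.240, 0.288 and 0.233 in Dlx5-/- libraries and at 0.191, 0.169 and 0.154 in control libraries. Gas1 over Pdgfra was 0.265, 0.289 and 0.268 in Dlx5-/- libraries and 0.238, 0.193 and 0.178 in control libraries, also without overlap. Against Prrx1, a further mesenchymal marker, Cdon was at 0.301, 0.344 and 0.449 in Dlx5-/- libraries and at 0.297, 0.277 and 0.231 in control libraries, a narrow gap, and Gas1 over Prrx1 overlapped. These ratios to markers were chosen after the values were seen, and the part of muscle or mesenchymal cells in the co-receptor levels was not tested. The palatal mesenchyme markers went both ways, with 4 of 8 estimates above 0 and 4 below 0. Pdgfra and Prrx1 had log2 fold changes of 0.32 and 0.45 (adjusted p = 0.308 and 0.149, edgeR). Pax9 and Msx1 were at -0.67 and -0.76 (adjusted p = 0.114 and 0.532, edgeR). Cartilage markers, whose cells respond to the related ligand Ihh and express Ptch1, summed to 4055, 5176 and 1776 CPM in Dlx5-/- libraries and 4181, 1615 and 2286 CPM in control libraries, which overlapped. The groups were apart for 2 marker lists, neurons and endothelium, both lower in every Dlx5-/- library. Neuron markers, with 5 of 6 estimates below 0, summed to 1875, 1613 and 1378 CPM in Dlx5-/- libraries, against 2769, 3527 and 2751 CPM in control libraries. Endothelium markers, with 3 of 4 estimates below 0, summed to 258, 294 and 247 CPM in Dlx5-/- libraries, against 308.5, 308.4 and 364 CPM in control libraries. None of these markers passed edgeR at 0.05, none was at 0 in all libraries, and their part in the Hedgehog values was not tested.

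Beyond the 9 members, a wider Hedgehog list of 44 symbols, also chosen with earlier results of these data known, was described by role. All but Adrbk1 were found, and these 43 genes all passed the filter. Among the 43, 24 had estimates above 0 and 19 below 0, with a median log2 fold change of 0.02, against 0.01 for all genes tested. None of the 43 passed edgeR at 0.05, and 9 had an unadjusted p under 0.05 (5 higher, 4 lower), of which 6 are the members above, against 12.8% of all genes in either direction. Without the 9 members, 34 genes remained, with 18 estimates above 0, 16 below 0 and a median of 0.01. Of these 34, 1 was higher and 2 were lower at an unadjusted p under 0.05, no more than the share over all genes. By role, the median was 0.26 over 8 genes of ligand reception, 0.05 over 16 of transduction, -0.18 over 14 target genes, -0.20 over 6 of ligand processing and release, and -0.28 over 3 ligands. The 11 target genes outside the members had a median of -0.10, with 5 above 0 and 6 below 0. That median was 0.01 with a filter of 5 CPM and 0.02 without control replicate 3.

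**Figure D4:**
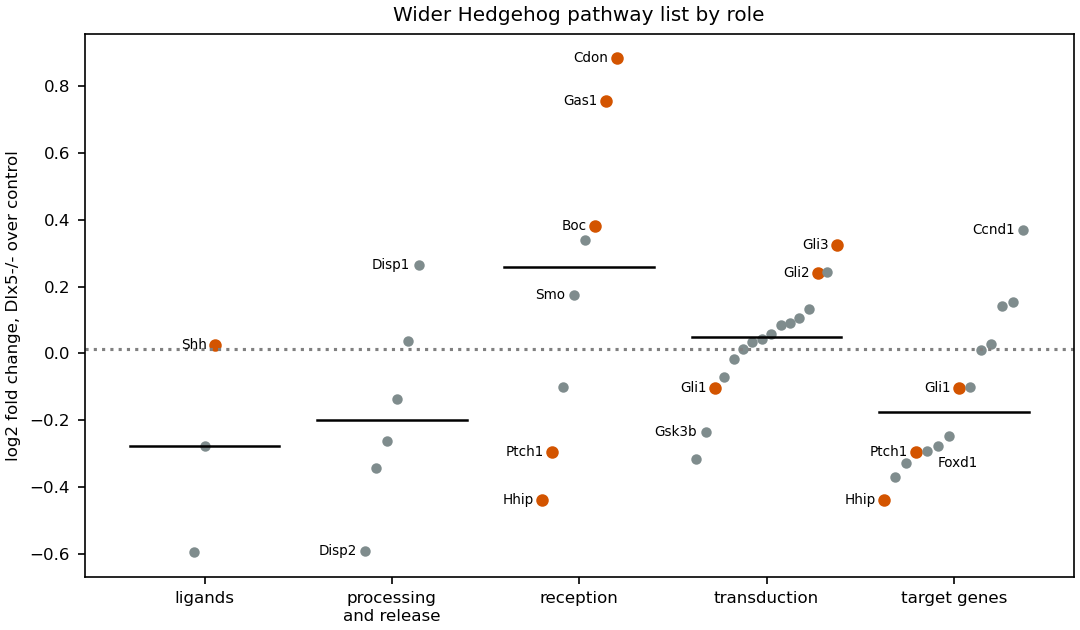
Log2 fold change, Dlx5-/- over control (vertical axis), of the 43 genes of the wider Hedgehog list by role, with members in orange, other genes in grey and a black line at the median of each role; genes with 2 roles appear under each, and the dotted line is the median of all genes tested. Cdon (0.88) and Gas1 (0.75) stand above the other reception genes, and the target genes have a median of -0.18.

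The 6 further genes of the list with the smallest p-values pointed in different directions. Gsk3b, a kinase that promotes processing of Gli proteins, measured 167, 184 and 183 CPM in Dlx5-/- libraries, against 212, 214 and 204 CPM in control libraries. Every Dlx5-/- library was below every control (log2 fold change -0.24, SE 0.08; adjusted p = 0.234, edgeR). Foxd1, a forkhead factor induced by Hedgehog in facial mesenchyme, measured 40.6, 35.6 and 35.2 CPM in Dlx5-/- libraries, against 48.4, 45.7 and 42.0 CPM in control libraries, again without overlap. The cell cycle gene Ccnd1 measured 173, 182 and 188 CPM in Dlx5-/- libraries, against 168, 118 and 135 CPM in control libraries, higher in each Dlx5-/- library. Smo, the signal transducer that Ptch1 inhibits, measured 158.6, 159.9 and 141 CPM in Dlx5-/- libraries, against 147, 132 and 129 CPM in control libraries, and the groups overlapped. Disp1 and Disp2 had log2 fold changes of 0.27 and -0.59. Disp2, a relative of the ligand release protein Disp1, measured 12.1, 14.3 and 32.7 CPM in Dlx5-/- libraries, against 29.2, 35.9 and 25.0 CPM in control libraries. Dlx5-/- replicates 1 and 2 were below every control for Disp2, and the groups overlapped through Dlx5-/- replicate 3, the library with the most brain markers.

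The genes with profiles most like those of Cdon, Gas1 and Gli1 were taken by the smallest root-mean-square difference between gene-centred log2(CPM + 1) values over the 6 libraries, among 11530 genes with a mean of at least 5 CPM once the members and predicted or clone-named genes (Gm, Rik, LOC and the like) were left out. For Cdon these were Mpzl2 (difference 0.105), Tex15 (0.123), S100a1 (0.145), Hmga1 (0.152) and Scara5 (0.154). For Gas1 they were Hmga1 (0.111), Mpzl2 (0.113), Chrdl1 (0.122), Hist1h4k (0.123) and Mecom (0.133), so Hmga1 and Mpzl2 stood on both lists. Hmga1, a chromatin protein of growing embryonic cells, measured 36.1, 33.7 and 46.6 CPM in Dlx5-/- libraries, against 25.5, 22.5 and 20.0 CPM in control libraries. Its values lay higher in every Dlx5-/- library, as those of Cdon and Gas1 did. Hist1h4k belongs to a family of near-identical histone genes, among which reads may have been split. The profile of Gli1 was nearest to those of Tmbim1 (0.0220), Pard3b (0.0384) and Ide (0.0395), each with overlapping groups, as for Gli1. All these genes were picked for likeness over the same 6 libraries. Whether their groups separate or overlap thus follows from the choice and is no separate result.

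**Figure D5:**
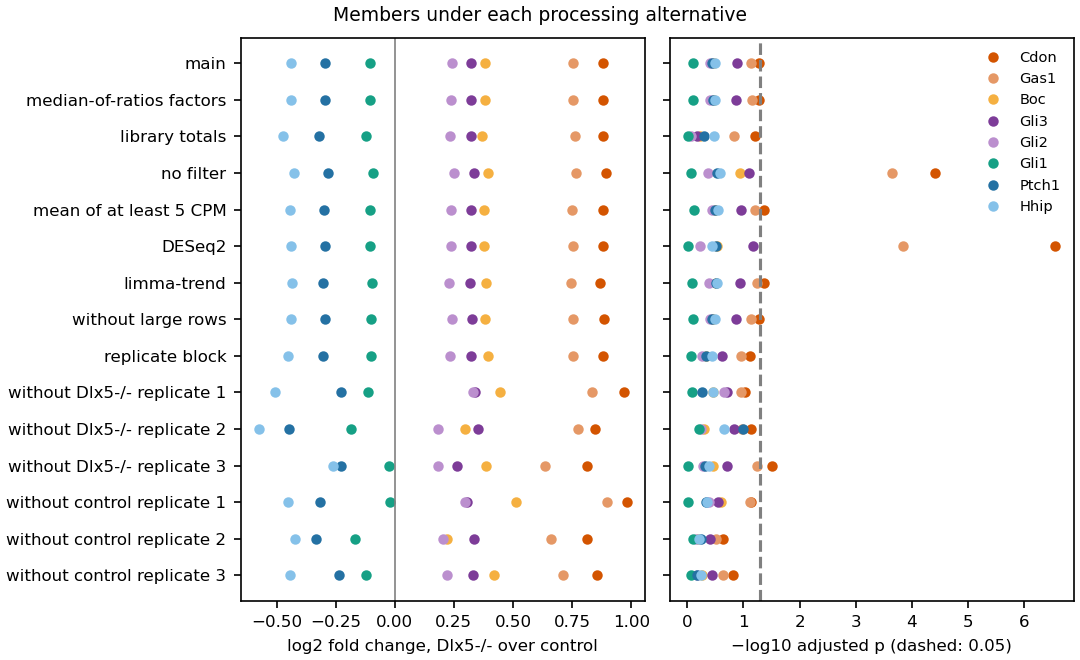
Log2 fold change, Dlx5-/- over control (left), and −log10 of the adjusted p (right, dashed line at 0.05) of 8 members under the main processing and each alternative (rows). Cdon stays between 0.81 and 0.98 on the log2 scale in all rows, while its adjusted p runs from 0.231 to 2.77e-07.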

How the data were processed

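RNA of soft palates at E14.5 was sequenced in 3 Dlx5-/- and 3 control libraries. Per the labels' protocols, tissue was cut from the rear of the palate, RNA came from an RNeasy kit, and TruSeq mRNA reagents were used for library preparation. Tools named in the submitters' processing notes are STAR 2.4.1d and Partek, and the build there is mm10, with no role or settings. For the annotation, and for strand in counting, nothing is given in the sources used here. The authors deposited estimated counts, 1 value per gene and library. The file calls itself normalized, but totals differ between libraries and 64.5% of values above 0.5 were whole within 0.001. Another 1 column, which fits no sample in the labels, was left out.

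Estimated counts were rounded to whole numbers and filtered at a mean of 1 CPM over 6 libraries, which kept 16218 genes. They were tested with edgeR 4.0.16 (R 4.3.3), by the quasi-likelihood test with TMM factors, no block and Benjamini-Hochberg adjustment over all kept genes. Levels are TMM-normalized CPM, and SEs come from the F statistic. Alternatives used DESeq2 1.42.0, limma 3.58.1 (pseudocount 1), other scalings and filters, a replicate block, omission of 6 rows with over 1% of a library's counts, and each library left out. Coordinates and exon lengths come from GENCODE M21 on GRCm38 (mm10), and promoters from RefSeq. The members and lists were chosen with earlier results of these data known. The named genes are the members, Dlx5, the 6 list genes with the smallest p and the nearest profiles (5 for Cdon and Gas1, 3 for Gli1). Marker lists were oral epithelium, palatal mesenchyme, muscle, cartilage, neurons, brain, endothelium, and macrophages with blood. Figures were drawn with matplotlib 3.10.9.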

Additional observations from a re-analysis of the deposited data

How the results depend on the processing

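All signs held for 8 members under every alternative run; Shh was the exception, at -0.046 with limma-trend and -0.064 with a replicate block, and from -0.59 to 0.43 with 1 library left out. Cdon passed with no filter (log2 fold change 0.89), a filter of 5 CPM (0.88), DESeq2 (0.88), limma-trend (0.87) and a threshold of 0.1 (0.88), and ranged from 0.81 to 0.98 with 1 library left out. Gas1 passed with no filter (0.77), DESeq2 (0.75) and a threshold of 0.1 (0.75). No other member passed under any of the 15 alternatives. The number of genes past the threshold was 1 in the main test, 41 with library totals, 679 with no filter, 74 with a filter of 5 CPM, 501 with DESeq2, 97 with limma-trend, 299 at a threshold of 0.1 and 0 to 164 with 1 library left out (164 without Dlx5-/- replicate 3). The cause was not tested. The labels do not say what the replicate numbers mark. Same-numbered libraries did not deviate together over all genes (correlations -0.014, -0.011 and 0.020), but with 3 libraries per group this cannot exclude a pairing. The replicate block, run as an alternative only, called 0 genes by edgeR (1826 at an unadjusted p under 0.05). With it Cdon had a log2 fold change of 0.88 and Gas1 of 0.75. Depth limits Shh, at 14 to 52.8 estimated counts per library, and with 3 against 3 libraries an exact permutation test cannot go below p = 0.1.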

Other observations

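The other Hedgehog ligands were also low, at means of 3.14 CPM (Ihh) and 2.59 CPM (Dhh) in Dlx5-/- libraries and 3.77 and 3.88 CPM in control libraries. Ihh, made by maturing chondrocytes, had 29, 46 and 13 estimated counts in Dlx5-/- libraries, against 41, 30 and 31 in control libraries. Dhh, a ligand of Schwann cells, had 33, 12 and 34 in Dlx5-/- libraries, against 25, 64 and 26 in control libraries. Groups overlapped for each, and neither passed edgeR (adjusted p = 0.887 and 0.627). The 11 target genes outside the members went both ways. The 5 with log2 fold changes above 0 were Ccnd1 (0.37), Bcl2 (0.15), Ccnd2 (0.14), Mycn (0.03) and Rab34 (0.01), and those below 0 included Foxf1 (-0.37), Foxl1 (-0.33), Foxd1 (-0.29), Foxd2 (-0.28) and Foxf2 (-0.25). None of these passed edgeR at 0.05. Markers of macrophages and blood summed to 472, 200.2 and 971 CPM in Dlx5-/- libraries, against 284, 393 and 545 CPM in control libraries.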
